A study of Mus musculus with 9 samples.

Results

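Neuregulin 1 (Nrg1) and Erbb4 lay in different cells of these mouse hearts. Nrg1 was high in endocardial nuclei and Erbb4 in cardiomyocyte nuclei, while Egfr was high in fibroblasts, mural cells and 1 macrophage cluster and Nrg2 was highest in myeloid nuclei and in a small Flt3-led cluster. Described here are 9 genes, chosen by name out of the 23747 genes of the tables: the ligands Nrg1, Nrg2, Hbegf, Areg and Btc and the receptors Egfr, Erbb2, Erbb3 and Erbb4. Every one of the 9 was listed in the tables of all 9 mice, and Areg was the only one that passed the filter on low genes in no cell class.

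Single-nucleus RNA sequencing was run on frozen heart tissue of 9 C57BL/6 mice, 8 weeks old, 3 in each of 3 groups, with tissue taken from below the site of ligation. All mice were gavaged for 7 days before surgery. The sham and I/R groups were gavaged with vehicle, and the SBP group with Shexiang Baoxin Pill (SBP, the MUSKARDIA of the labels). In the I/R and SBP groups the left anterior descending coronary artery was then tied for 30 min and reopened, and hearts were taken after 24 h. The sham group had needles only, without a tie, and no group received SBP without injury. Each library came from its own mouse, and the labels give neither the sex of the mice nor a batch.

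ErbB receptors are tyrosine kinases of the cell surface that pair up when a ligand of the epidermal growth factor family binds. Egfr binds ligands such as amphiregulin (Areg), betacellulin (Btc) and heparin-binding EGF-like growth factor (Hbegf). Erbb3 and Erbb4 bind neuregulins, Erbb2 has no known ligand of its own and acts as a partner, and Erbb3 has little kinase activity. In the heart, neuregulin 1 from the endocardium and the microvessels is known to act on Erbb2 and Erbb4 of cardiomyocytes, in the forming trabeculae and in the adult muscle. Most of the ligands are made as membrane proteins and are freed by metalloproteases of the Adam family, which the iRhoms (Rhbdf1, Rhbdf2) help to mature.

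On the mouse genome GRCm38 (gene models of GENCODE), Nrg1 and Erbb4 are very long genes. Nrg1 spans chromosome 8, 31814551 to 32884029, on the minus strand, and Erbb4 spans chromosome 1, 68032186 to 69108059, on the minus strand. Nrg2 (chromosome 18, 36017652 to 36197380) and Hbegf (chromosome 18, 36504927 to 36515805) lie near each other on the minus strand. Btc (chromosome 5, 91357261 to 91402994, minus) and Areg (chromosome 5, 91139599 to 91148432, plus) are neighbours as well. Egfr spans chromosome 11, 16752203 to 16918158, plus strand, Erbb2 chromosome 11, 98412470 to 98437716, plus strand, and Erbb3 chromosome 10, 128567523 to 128589652, minus strand. Erbb4 overlaps 8 annotated short or unconfirmed transcripts on its own strand and Erbb3 overlaps Mir6917, whereas Nrg1, Nrg2, Egfr and Erbb2 overlap genes on the opposite strand. The counting of the deposited tables gave no strand setting in the sources used here, so reads of overlapping genes may be shared. Levels below are CPM, the UMIs of a gene (unique molecular identifiers, 1 per captured molecule) scaled to a common library total, and are compared between samples and classes of 1 gene, never between genes.

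The 9 libraries held 4576 to 6418 nuclei and 10329520 to 18205985 UMIs each, with a median of 1540 to 2031 UMIs per nucleus. After removal of 85 nuclei marked as doublets (0.173%, too few to show that the caller worked), 49086 nuclei were sorted into classes by markers. These were 10567 cardiomyocyte, 13442 endothelial, 14105 fibroblast and 9210 myeloid nuclei, with 617 T cell, 338 B cell, 183 smooth muscle and pericyte (mural) and 119 Schwann nuclei and 2 small clusters left unnamed. Every named cluster held 6 to 12 markers of its own list in over 10% of its nuclei. When each nucleus was typed by a marker score instead, 77.1% of the named nuclei had the same type. Some calls below were lost with that typing. Endothelial nuclei were divided into 7829 capillary, 3870 endocardial, 888 arterial and 855 lymphatic nuclei, and no venous class was set apart. By the clusters of all nuclei, 2863 endothelial nuclei were named capillary, 2473 were named venous and 2468 were left unnamed. The nuclei called capillary here may thus include venous ones. Of 48881 distinct barcodes, 290 occurred in more than 1 library. The clusters that held most nuclei of a class differed between groups. Cardiomyocytes of the 3 sham hearts lay mostly in the 2 clusters led by Gm17428, and those of I/R replicates 2 and 3 and the SBP hearts mostly in the clusters led by Trim63 and Ankrd1. I/R replicate 1 stood apart, with 733 and 124 of its 1090 cardiomyocytes in the Gm17428-led clusters and 134 and 99 in the Trim63-led and Ankrd1-led ones. The Kcnip1-led cluster held 809 of 1479, 697 of 1574 and 855 of 1409 fibroblasts of sham replicates 1 to 3. The Apod-led cluster held 8, 648 and 1283 fibroblasts of I/R replicates 1 to 3, while I/R replicate 1 had 499 in the Tnc-led and 396 in the Gfra1-led cluster. In the myeloid class the Cd163-led cluster held 279, 83 and 457 nuclei of I/R replicates 1 to 3, the Gpnmb-led cluster 1242, 181 and 294 and the Ms4a8a-led cluster 3, 919 and 53, so that a different cluster led in each I/R heart. Without I/R replicate 1, Erbb4 in I/R against sham was -1.01 in endothelial (limma adjusted p = 0.0108) and -0.97 in myeloid nuclei (adjusted p = 0.0108), and without I/R replicate 2 it was -0.82 in myeloid nuclei (adjusted p = 0.0351), still called. Calls lost without one of these libraries are named with each result. Cardiomyocytes made up 26.8% ± 2.52 of the sham nuclei, 19.1% ± 2.60 of the I/R nuclei and 19.2% ± 0.434 of the SBP nuclei (mean ± SD, n = 3). The classes come from clustering in which none of the 9 genes was used, so their levels by class are given without a test.

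**Figure D1:**
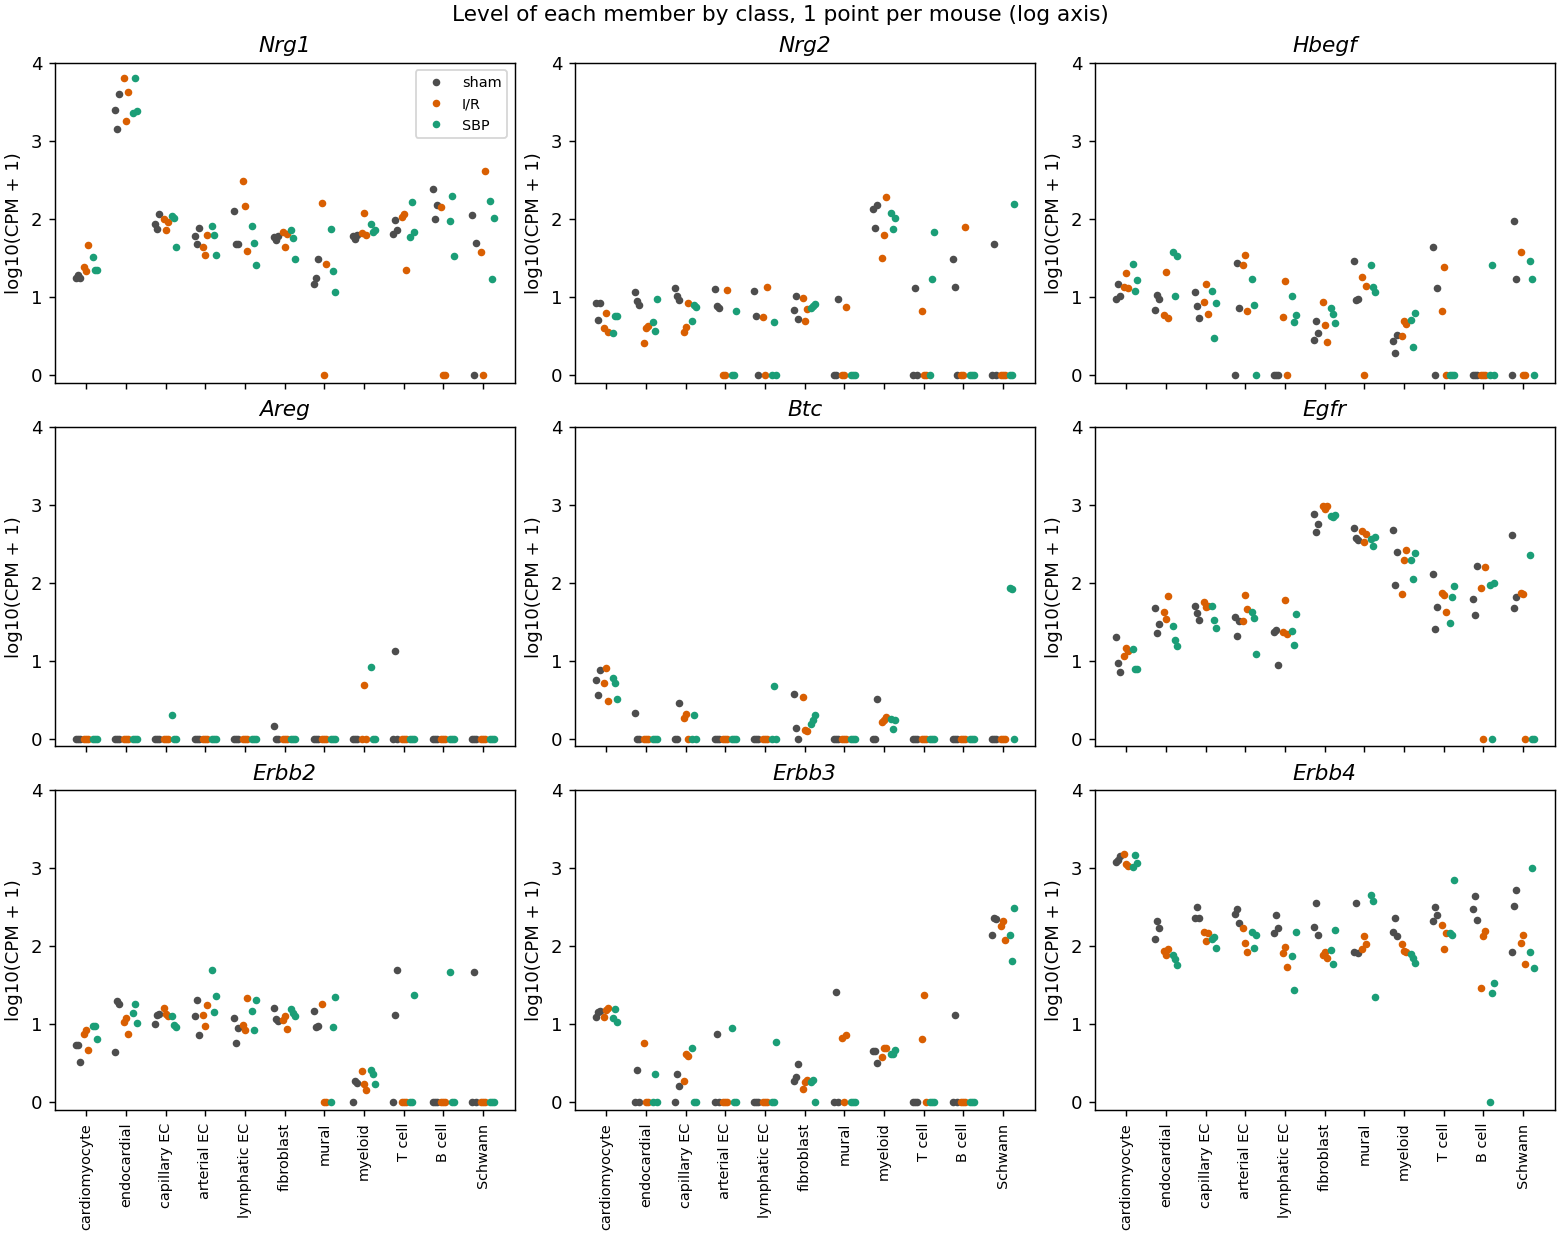
Level of each of the 9 genes by class, as log10(CPM + 1), where CPM is computed from the summed UMIs of that class in a mouse. Each point is 1 mouse, colored by group, with classes of few nuclei included. Nrg1 stands out in endocardial nuclei, Egfr in fibroblasts, Erbb4 in cardiomyocytes and Erbb3 in Schwann nuclei.

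Among the ligands, Nrg1 lay mostly in the endocardium. Endocardial nuclei held 26255 of its 32208 UMIs, at 3508 CPM ± 1919 (SD, n = 9 mice). Over the 9 mice, 46.6% to 75.3% of endocardial nuclei carried an Nrg1 UMI, against 2.78% to 13.5% of T cell nuclei, a type taken here as background (median depth 1714 and 1055 UMIs per nucleus). When each nucleus was thinned to 800 UMIs, the shares were 52.1% and 5.73%. In the other named classes Nrg1 stood between 23.7 CPM in cardiomyocytes and 106 CPM in B cells. Their order, with capillary (87.5 ± 22.5), T cell (84.9 ± 40.6), myeloid (71.6 ± 20.1), fibroblast (55.6 ± 12.7) and arterial nuclei (55.1 ± 17.0) in between, was within the spread between mice for each pair of neighbours. Per 1000 UMIs of 7 endocardial markers there were 453 ± 195 Nrg1 UMIs in endocardial nuclei, and means between 289 (arterial) and 532 (B cell) in the other classes with a value, with 381 in cardiomyocytes, 494 in fibroblasts and 307 in myeloid nuclei. The Cd163-led myeloid cluster had 185. What part of the Nrg1 UMIs outside the endocardium came from endocardial RNA was not tested.

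Nrg1 in endocardial nuclei varied more between mice than between groups. It was 2500, 1428 and 3983 CPM in sham replicates 1 to 3, 6412, 1783 and 4276 CPM in I/R replicates and 2257, 6527 and 2404 CPM in SBP replicates. The groups overlapped, with 1 of 3 I/R mice and 2 of 3 SBP mice inside the range of the sham mice. The log2 fold change of I/R against sham was 0.59 (SE 0.60, 95% interval -0.77 to 1.96, limma adjusted p = 0.734), and that of SBP against I/R was -0.15 (95% interval -1.52 to 1.21, adjusted p = 0.996). In cardiomyocytes, where Nrg1 was low, the 3 I/R mice (mean 29.5 CPM) lay above the 3 sham mice (mean 17.0 CPM), with a log2 fold change of 0.67 that was not called (limma adjusted p = 0.294). These groups did not overlap for 16.4% of all genes. SBP mice lay at 21.2 to 31.2 CPM for Nrg1 there, and SBP and sham mice did not overlap for 23.4% of all genes. Per 1000 UMIs of the endocardial markers, Nrg1 in cardiomyocytes was 222 (170 to 260) in the sham mice, 490 (321 to 782) in the I/R mice and 430 (399 to 469) in the SBP mice. Sham did not overlap with the others, and the share of all genes without overlap was not computed for such ratios. The markers themselves were low in cardiomyocytes, at group means of 78.9, 61.7 and 58.0 CPM. In endocardial nuclei the ratio had group means of 400, 546 and 411, with overlap between all groups.

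Nrg2, a second neuregulin, known mainly from the nervous system, was found in myeloid nuclei at 105 CPM ± 50.5 (n = 9 mice, 1636 of 2363 UMIs). It was carried by 10.2% of myeloid nuclei and by 0.81% of T cell nuclei, at median depths of 1723 and 1055 UMIs. Within the myeloid class it was highest in the cluster led by Cd163, a receptor of resident macrophages, at 201 CPM ± 103, and in the cluster led by Lilra5 and genes of antigen presentation, at 137 CPM ± 72.1. The clusters led by Gpnmb and Ccr2 held 7.86 and 16.3 CPM. A separate cluster led by Flt3, Htr7 and Clec9a, which was not given a name, held 171 CPM ± 56.3.

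In the Cd163-led cluster Nrg2 was 158, 99.2 and 168 CPM in the sham mice, 101, 163 and 434 CPM in the I/R mice and 221, 276 and 189 CPM in the SBP mice. All 3 SBP mice lay above all 3 sham mice, while the I/R mice spanned the other groups. In this cluster 20.2% of all genes had no overlap between SBP and sham mice. None of the 3 comparisons was called, and SBP against sham gave a log2 fold change of 0.71 (95% interval -0.32 to 1.73, limma adjusted p = 0.667). In endothelial nuclei, where Nrg2 was at 5.87 CPM, Nrg2 gave for I/R against sham a log2 fold change of -1.14 (95% interval -1.95 to -0.32, limma adjusted p = 0.126, not called).

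Hbegf, Btc and Areg, ligands of Egfr, were low. Hbegf was at 14.2 CPM ± 5.49 in cardiomyocytes, which held 809 of its 1256 UMIs, and at 14.5 CPM ± 12.2 in endocardial nuclei. Mural nuclei had 13.6 CPM ± 8.54 and arterial nuclei 13.3 CPM ± 12.5. In Schwann nuclei Hbegf was at 21.1 CPM ± 30.2, on 6 UMIs. In cardiomyocytes it was 8.44, 13.9 and 9.29 CPM in sham, 12.2, 19.5 and 12.2 CPM in I/R and 25.9, 11.1 and 15.4 CPM in SBP mice, with overlap between all groups. In endocardial nuclei the UMIs were few: 5, 12 and 5 in sham, 3, 20 and 4 in I/R and 48, 7 and 31 in SBP mice. Hbegf there gave a log2 fold change of 1.43 for SBP against I/R (95% interval 0.14 to 2.72, limma adjusted p = 0.994, not called), and SBP replicate 2 lay within the range of the I/R mice. The difference of that contrast between endocardial and capillary nuclei was 1.90 on the log2 scale (95% interval 0.95 to 2.84, limma adjusted p = 0.904, not called).

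Btc was counted in cardiomyocytes at 4.28 CPM ± 1.80 (256 of 313 UMIs), and the 3 contrasts there had adjusted p-values of 0.929, 1.00 and 0.848 (limma). Schwann nuclei had 18.3 CPM ± 36.4 of Btc, on 8 UMIs. Areg held 24 UMIs in all 9 hearts. Of these Areg UMIs, 20 came from myeloid nuclei, and all 20 from I/R replicate 2 (11) and SBP replicate 1 (9). An Areg UMI was seen in 0 of 10567 cardiomyocyte nuclei, which allows a share of nuclei with an Areg UMI of up to 0.0284% by counting error alone and sets no limit on the share that express it.

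Among the receptors, Egfr was high in fibroblasts, at 746 CPM ± 173 (n = 9 mice, 23975 of 29102 UMIs). It was carried by 40.9% to 74.2% of fibroblast nuclei over the mice and by 2.50% to 10.6% of T cell nuclei, at median depths of 1785 and 1055 UMIs. The 7 fibroblast clusters had means between 649 and 874 CPM, a narrower range than that between mice. Mural nuclei followed at 384 CPM ± 63.6, although only 4 mice had 20 or more of them. Myeloid nuclei were at 211 CPM ± 123, mostly in the Cd163-led cluster (438 CPM ± 164). That cluster held 538 Egfr UMIs per 1000 UMIs of 8 fibroblast markers, against 139 in fibroblasts. Endothelial (36.6 CPM) and cardiomyocyte nuclei (10.7 CPM) had 32.3 and 35.1 Egfr UMIs per 1000 fibroblast marker UMIs.

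Egfr rose in fibroblasts after I/R. It was 766, 441 and 563 CPM in the sham mice, 971, 869 and 954 CPM in the I/R mice and 708, 697 and 746 CPM in the SBP mice. The 3 I/R mice lay above every sham and every SBP mouse, and the SBP mice lay within the sham range. Of all genes in fibroblasts, 27.1% had no overlap between I/R and sham and 8.3% between SBP and I/R mice. The log2 fold change of I/R against sham was 0.69 (SE 0.18, 95% interval 0.30 to 1.09, limma adjusted p = 0.0291), the only member and type of cell in which a rise was called. Of all genes tested in fibroblasts, 6.48% were called higher in this comparison. SBP against I/R gave -0.38 (95% interval -0.77 to 0.02, adjusted p = 1.00) and SBP against sham 0.32 (95% interval -0.08 to 0.71, adjusted p = 0.371), neither called. The call was lost without sham replicate 2 (0.50, adjusted p = 0.0728), sham replicate 3 (0.70, adjusted p = 0.0857), I/R replicate 1 (0.66, adjusted p = 0.06) or I/R replicate 2 (0.76, adjusted p = 0.0583). Over 21 other settings it was lost in 5, these among them. The fibroblast markers Dcn, Col1a2 and 6 others summed to 4011 to 6148 CPM in sham, 5441 to 7275 CPM in I/R and 4981 to 5902 CPM in SBP fibroblasts. Egfr per 1000 of these UMIs was 130 (91.6 to 191) in sham, 154 (131 to 170) in I/R and 132 (126 to 142) in SBP mice, with all groups overlapping. Taken singly, 2 of the 8 markers were called higher and 1 lower for I/R against sham, and 5 of 8 were below 0, with a median log2 fold change of -0.22. In the Cd163-led macrophage cluster Egfr was 642, 126 and 394 CPM in sham, 312, 639 and 539 CPM in I/R and 380, 409 and 501 CPM in SBP mice, with all groups overlapping.

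Egfr in endothelial nuclei had the lowest unadjusted p of any member between SBP and I/R in the 4 main types, and it was not called. Over all endothelial nuclei the log2 fold change was -0.80 (SE 0.22, 95% interval -1.27 to -0.32, limma adjusted p = 0.963). In endocardial nuclei Egfr was 46.4, 21.4 and 29.0 CPM in sham, 41.6, 33.3 and 65.9 CPM in I/R and 27.2, 17.2 and 14.6 CPM in SBP mice. The SBP mice lay below the I/R mice, where 9.01% of all genes had no overlap, with -1.20 on the log2 scale (95% interval -1.94 to -0.46, limma adjusted p = 0.994). The values rest on 13 to 61 Egfr UMIs per mouse.

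**Figure D2:**
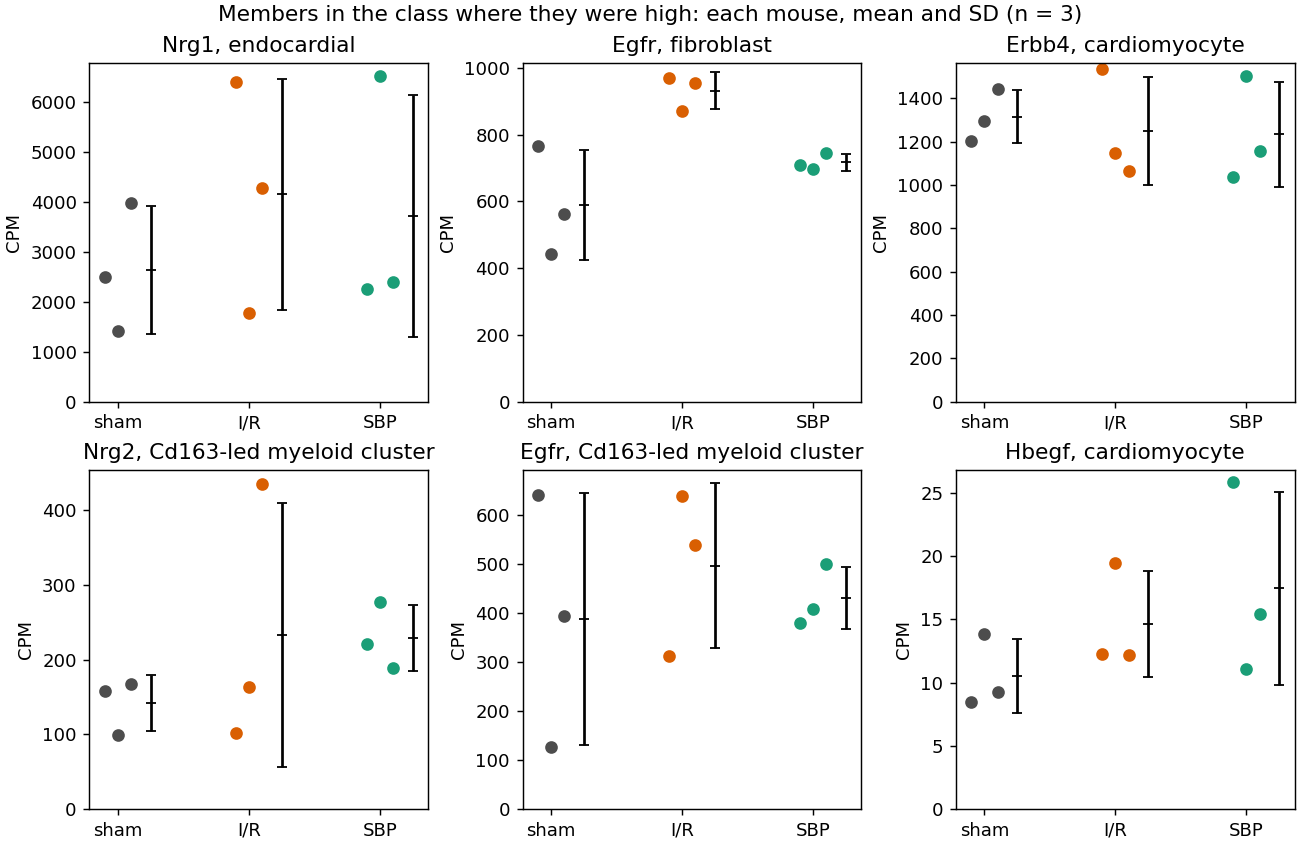
CPM of Nrg1, Egfr, Erbb4 and Nrg2 in a class or cluster where each was high, and of Hbegf in cardiomyocytes. There is 1 point per mouse, grouped by treatment, and a bar for the mean ± SD of 3 mice. The 3 I/R mice lie above the sham and SBP mice for Egfr in fibroblasts, while the groups overlap for Nrg1 in endocardial and Erbb4 in cardiomyocyte nuclei.

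Erbb2, the shared partner receptor, was low and broad, with 988 UMIs in all. It was at 11.8 CPM ± 2.40 in endothelial nuclei, 11.8 ± 2.40 in fibroblasts and 5.71 ± 2.16 in cardiomyocytes, and at 0.884 ± 0.517 CPM in myeloid nuclei. Erbb2 in cardiomyocytes was 4.5, 4.48 and 2.32 CPM in sham, 6.43, 7.44 and 3.74 CPM in I/R and 8.57, 8.42 and 5.45 CPM in SBP mice. The SBP mice lay above the sham mice, where 23.4% of all genes had no overlap, with a log2 fold change of 0.85 (SE 0.30, limma adjusted p = 0.255, not called).

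Erbb3, a neuregulin receptor that Schwann cells need, was at 180 CPM ± 73.2 in Schwann nuclei, of which 39.5% carried it. These are 49 UMIs in 119 nuclei, and only 1 mouse had 20 or more Schwann nuclei, so no comparison of groups was made. Cardiomyocytes followed at 12.8 CPM ± 1.89 (775 of 947 Erbb3 UMIs), with group means of 12.9, 13.6 and 11.9 CPM in sham, I/R and SBP mice. Erbb3 in all other named classes was at or below 4.09 CPM.

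Erbb4 was high in cardiomyocytes, at 1266 CPM ± 188 (n = 9 mice), which held 76348 of its 85951 UMIs. An Erbb4 UMI was carried by 81.3% to 91.4% of cardiomyocyte nuclei over the mice, and by 8.11% to 26.2% of T cell nuclei, at median depths of 4423 and 1055 UMIs. After thinning to 800 UMIs the shares were 54.0% and 12.1%. In the cardiomyocytes Erbb4 was 1203, 1296 and 1445 CPM in sham, 1535, 1148 and 1065 CPM in I/R and 1039, 1502 and 1159 CPM in SBP mice. The groups overlapped, and the log2 fold change was -0.09 for I/R against sham (SE 0.21, 95% interval -0.55 to 0.38, limma adjusted p = 0.885) and -0.02 for SBP against I/R (95% interval -0.48 to 0.45, adjusted p = 1.00). The 4 cardiomyocyte clusters had Erbb4 means of 1140 to 1594 CPM.

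In the classes other than cardiomyocytes Erbb4 was lower: 172 CPM ± 72.8 in capillary, 107 ± 51.7 in endocardial, 111 ± 54.4 in myeloid and 135 ± 94.2 in fibroblast nuclei, with 244 ± 184 in T cells and 149 ± 151 in B cells. Its mean was lower in I/R than in sham hearts in each of these, and the fall was called in endothelial, fibroblast and myeloid nuclei. In T cells the SBP mean (329 ± 323 CPM) was above the sham mean (261 ± 52.8 CPM), on 53 and 57 UMIs. Endothelial Erbb4 was 174, 270 and 210 CPM in sham, 127, 98.5 and 115 CPM in I/R and 97.3, 94.3 and 86.6 CPM in SBP mice, without overlap between sham and either injured group, as for 20.9% of all genes in I/R against sham and 24.1% in SBP against sham. The log2 fold changes against sham were -0.92 for I/R (SE 0.16, limma adjusted p = 0.0135) and -1.20 for SBP (adjusted p = 0.00524). Myeloid Erbb4 was 151, 233 and 134 CPM in sham, 105, 85.8 and 84.7 CPM in I/R and 79.0, 69.9 and 60.3 CPM in SBP mice, with -0.87 (SE 0.21, adjusted p = 0.0129) and -1.26 (adjusted p = 0.00212). In capillary nuclei the values were -0.89 (adjusted p = 0.0116) and -1.14 (adjusted p = 0.00396), and in endocardial nuclei -0.95 (adjusted p = 0.0678, not called) and -1.29 (adjusted p = 0.0131). The capillary calls depend on how capillary nuclei were set apart. With the endothelial subtypes taken from the clusters of all nuclei, the version fitted first, capillary Erbb4 gave -0.34 for I/R (adjusted p = 0.547) and -0.54 for SBP (adjusted p = 0.355), neither called. The separate clustering of endothelial nuclei was adopted after those values were seen. For I/R against sham, 1.39% of all genes were called lower in endothelial, 7.78% in myeloid, 2.27% in capillary and 0.123% in endocardial nuclei, and for SBP against sham 1.49%, 5.4%, 2.17% and 0.43%. For I/R against sham the Erbb4 call was lost without sham replicate 2 in endothelial (adjusted p = 0.0639), myeloid (0.0564) and capillary nuclei (0.0645), and without I/R replicate 2 in endothelial (0.0508) and capillary nuclei (0.0638). For SBP against sham the endocardial call was lost without sham replicate 2 (0.0893), sham replicate 3 (0.105) or SBP replicate 3 (0.127). It was also lost with the replicate number as a block and with types by marker score.

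The markers of cardiomyocytes moved with Erbb4 in these classes. All 8 (Ttn, Pln, Ryr2, Myh6, Tnnt2, Tnni3, Actn2 and Mybpc3) passed the filter in every class fitted and none was at 0. For I/R against sham, 7 of the 8 fell in endothelial nuclei, 8 of 8 in fibroblasts, 8 of 8 in myeloid and 8 of 8 in capillary nuclei, with median log2 fold changes of -1.07, -1.35, -1.36 and -1.07. In endocardial nuclei all 8 were below 0 with a median of -0.94 and none was called. For SBP against sham, 5 of the 8 were called lower in endothelial nuclei (median -1.55). All 8 were called lower in fibroblasts (-1.56), myeloid (-1.57) and capillary nuclei (-1.50). In endocardial nuclei 2 of 8 were called lower in that comparison, and all 8 were below 0 (-1.47). Summed over the 8 markers, endothelial nuclei held 7936 to 10061 CPM in sham, 3248 to 5458 CPM in I/R and 2865 to 3804 CPM in SBP mice. In the cardiomyocytes themselves the 8 markers had median log2 fold changes of -0.34 for I/R and -0.40 for SBP against sham. None was called.

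The ratio of Erbb4 to these markers was close between most classes. Per 1000 UMIs of the 8 cardiomyocyte markers there were 30.3 ± 5.29 Erbb4 UMIs in cardiomyocytes (n = 9 mice), 25.8 ± 3.56 in capillary, 24.2 ± 4.39 in endocardial, 30.9 ± 6.76 in myeloid, 35.0 ± 7.70 in arterial and 28.6 ± 12.4 in lymphatic nuclei. T cells had 41.6 ± 21.7 and B cells, in 7 mice, 13.5 ± 11.8. As means of the sham, I/R and SBP groups, the ratio was 26.2, 32.4 and 32.3 in cardiomyocytes, 23.3, 26.8 and 27.9 in endothelial nuclei and 25.8, 36.3 and 30.5 in myeloid nuclei. In fibroblasts it was 39.2, 36.7 and 54.5, and 28.2, 33.7 and 34.5 with the Gria4-led cluster described next left out. In the Cd163-led cluster it was 27.1, 26.5 and 30.1. What part of the Erbb4 UMIs in these classes was made in the nuclei that carried them was not tested. Over all nuclei of a heart Erbb4 fell by 0.67 on the log2 scale after I/R (SE 0.16, limma adjusted p = 0.0285), with 753, 809 and 979 CPM in sham, 578, 467 and 548 CPM in I/R and 469, 628 and 521 CPM in SBP mice. In such whole-heart sums fewer cardiomyocytes and less RNA per cardiomyocyte cannot be told apart, and 5.46% of all genes were called lower there. That call was lost without sham replicate 1 (adjusted p = 0.0526), sham replicate 2 (0.0586), sham replicate 3 (0.0986), I/R replicate 2 (0.0975) or SBP replicate 3 (0.0501), with total UMIs as scaling (0.0571), with the 6 sham and I/R mice alone (0.0579) and with the replicate number as a block (0.0525).

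**Figure D3:**
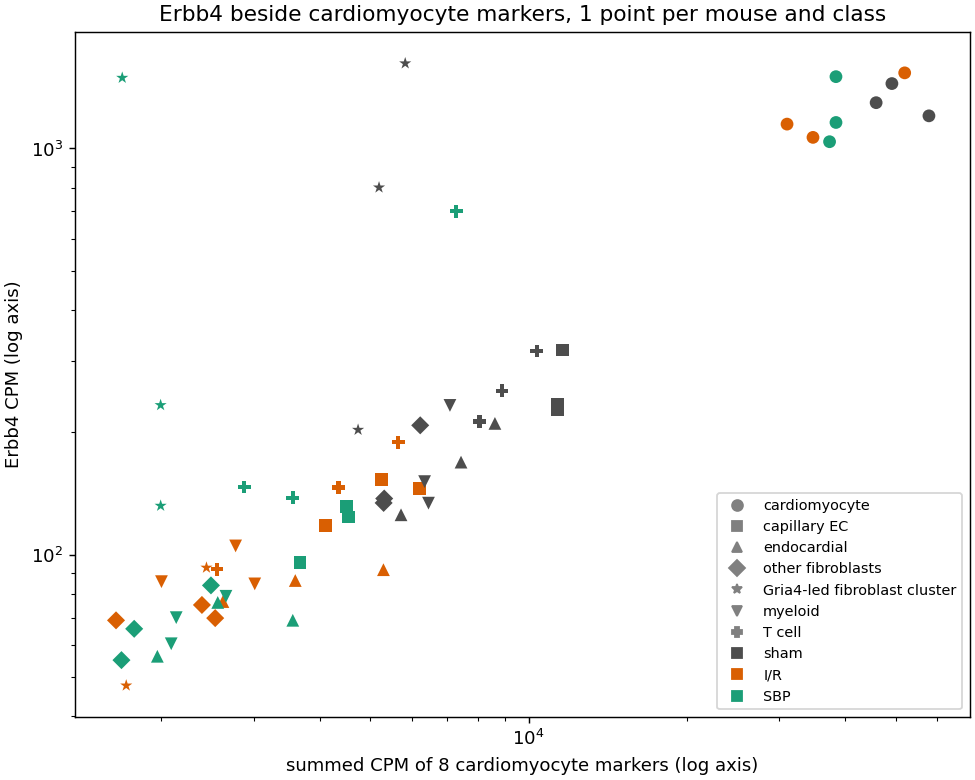
Erbb4 CPM (vertical, log axis) against the summed CPM of 8 cardiomyocyte markers (horizontal, log axis), 1 point per mouse and class, colored by group and shaped by class. Most classes lie on 1 band with the cardiomyocytes at its upper end, where the groups overlap in Erbb4. In capillary, endocardial, myeloid and other fibroblast nuclei the sham points lie above those of I/R and SBP. Sham and SBP points of the Gria4-led fibroblast cluster and 1 SBP T cell point at 701 CPM lie above the band.

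A fibroblast cluster stood apart. It was led by Gria4, Dkk3 and Col4a6, with 667 nuclei, and Erbb4 was 689 CPM ± 693 (n = 9 mice), against 61.8 to 162 CPM in the other 6 fibroblast clusters. By mouse Erbb4 was 802, 1620 and 203 CPM in sham, 92.9, 1578 and 47.6 CPM in I/R and 233, 132 and 1493 CPM in SBP replicates 1 to 3. High and low mice were thus present in every group. The I/R mouse at 1578 CPM had 16 such nuclei and was not in the fit of this cluster, which needs 20 nuclei. In the 8 mice with 20 or more nuclei the cluster held 27.8 to 886 Erbb4 UMIs per 1000 cardiomyocyte marker UMIs. Egfr in the same cluster was 733 CPM ± 216, within the range of the other fibroblast clusters. The cluster was singled out after its values were seen.

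In all fibroblasts Erbb4 was 178, 358 and 139 CPM in sham, 75.8, 83.2 and 69.4 CPM in I/R and 88.6, 58.7 and 163 CPM in SBP mice. I/R against sham gave -1.43 (SE 0.39, limma adjusted p = 0.0438), where 5.08% of all genes were called lower, and SBP against sham gave -1.12 (adjusted p = 0.145, not called), with 2.4% called lower. The I/R call was lost without sham replicate 1 (-1.54, adjusted p = 0.0844), sham replicate 2 (-1.04, 0.0916), I/R replicate 1 (-1.43, 0.0971), I/R replicate 2 (-1.48, 0.106), I/R replicate 3 (-1.35, 0.123) or SBP replicate 1 (-1.43, 0.0577). It was also lost with the replicate number as a block, total UMIs as scaling, no filter on low genes and types by marker score. With the Gria4-led cluster left out, the fibroblasts held 134 to 208 CPM in sham, 68.9 to 75.2 CPM in I/R and 55.0 to 84.0 CPM in SBP mice. The log2 fold changes were then -1.13 (SE 0.20, adjusted p = 0.00357) and -1.21 (adjusted p = 0.00349), both called, beside 5.21% and 2.42% of all genes called lower, and Erbb4 per 1000 cardiomyocyte marker UMIs was 32.1 ± 5.40.

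**Figure D4:**
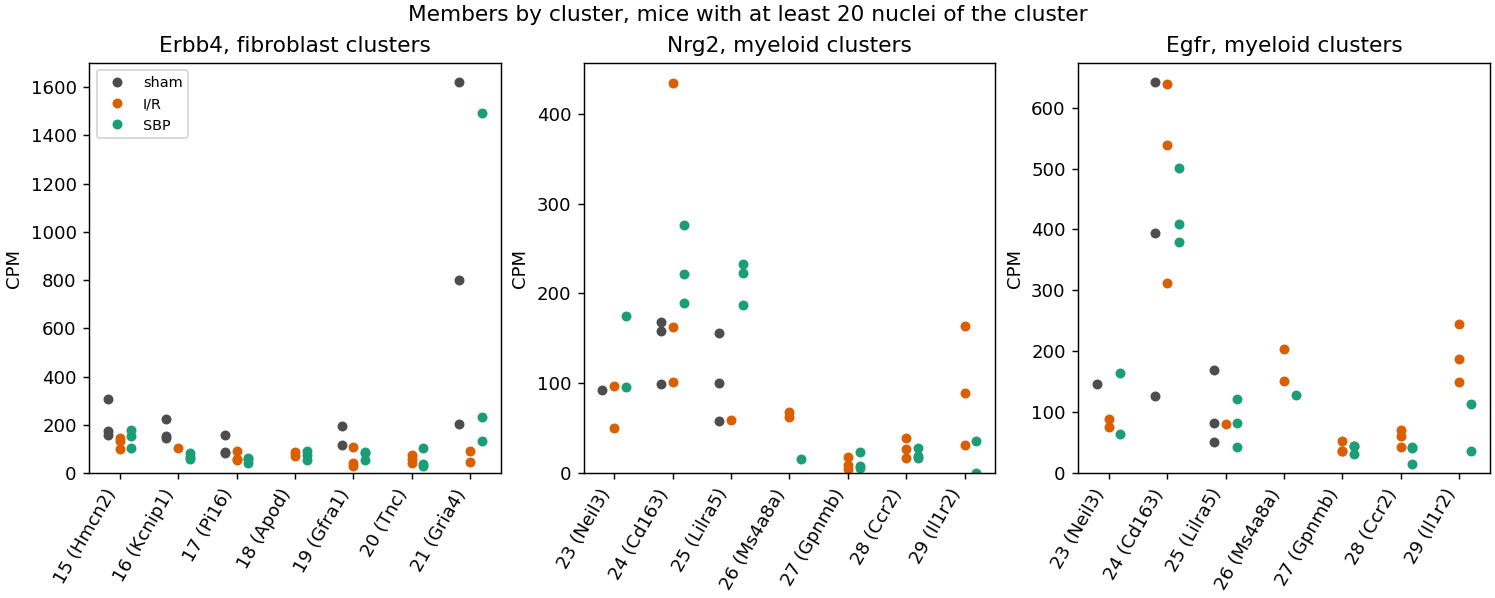
CPM of Erbb4 in the 7 fibroblast clusters and of Nrg2 and Egfr in the 7 myeloid clusters, each named by its number and a leading gene. Each point is 1 mouse with 20 or more nuclei of the cluster, colored by group. Erbb4 reaches over 1400 CPM in single sham and SBP mice in the Gria4-led cluster only, and Nrg2 and Egfr are highest in the Cd163-led cluster.

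Counted over the 24 pairs of a member and a main cell type that could be tested (8 in cardiomyocytes, 6 in endothelial, 6 in fibroblast and 4 in myeloid nuclei), 4 were called for I/R against sham. These were the rise of Egfr in fibroblasts and the falls of Erbb4 in endothelial, fibroblast and myeloid nuclei. Without sham replicate 2 the count was 0, without I/R replicate 2 it was 1 and without I/R replicate 1 it was 2. The shares of all genes called in these reduced fits are not given here. Whether such losses are particular to the members was not tested. With all 9 mice, no pair was called in cardiomyocytes for I/R against sham. Of all genes, 0.839% were called there, against 3.19% in endothelial, 11.6% in fibroblast and 18.3% in myeloid nuclei. SBP against sham gave 2 calls, the falls of Erbb4 in endothelial and myeloid nuclei, where 0.14% of all genes were called in cardiomyocytes, 2.12% in endothelial, 6.15% in fibroblast and 13% in myeloid nuclei. SBP against I/R gave 0 calls with limma, with 1 pair (Egfr, endothelial) at an unadjusted p under 0.05, and in the 4 main types 0% of all genes were called while 273 to 632 genes per type had an unadjusted p under 0.05. SBP against I/R and I/R against sham share the I/R mice, so their values for a member are not independent.

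Whether a member changed differently in 2 classes was tested on the difference within each mouse, for 35 combinations of a member and a pair of classes in each contrast. None was called with limma, with 6, 1 and 6 at an unadjusted p under 0.05 for I/R against sham, SBP against I/R and SBP against sham. The Erbb4 difference between cardiomyocytes and endothelial nuclei was 0.84 on the log2 scale for I/R against sham (95% interval 0.27 to 1.40, limma adjusted p = 0.307). For SBP against sham, Erbb4 in cardiomyocytes minus myeloid nuclei was 1.16 (95% interval 0.50 to 1.82, adjusted p = 0.0507). Erbb2 in cardiomyocytes minus fibroblasts was 0.78 for I/R against sham (adjusted p = 0.083). Of all genes, the share called for I/R against sham was 0.0352% between cardiomyocytes and endothelial nuclei, 2.15% with fibroblasts and 5.09% with myeloid nuclei in place of the endothelial ones, 0.501% between endothelial nuclei and fibroblasts, 3.67% between endothelial and myeloid nuclei, 7.32% between fibroblasts and myeloid nuclei and 0.0106% between endocardial and capillary nuclei. For SBP against sham the same shares were 0.0616%, 1.88%, 5.18%, 0.306%, 2.21%, 4.97% and 0.0106%.

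Genes that prepare or carry the ErbB signal were followed in fixed lists. Among 8 sheddases and iRhoms, Adam12, a metalloprotease that can release Hbegf, rose most after I/R. In fibroblasts sham hearts had 24.2 CPM ± 8.27, I/R hearts 678 ± 127 and SBP hearts 615 ± 160 (n = 3), a log2 fold change of 4.79 for I/R against sham (SE 0.25, limma adjusted p = 2.02e-06) and 4.63 for SBP against sham. It was among the leading genes of the Tnc-led fibroblast cluster, which was nearly missing from sham hearts (14 of 1991 nuclei). Adam12 was also called in myeloid nuclei (4.09, 1.10 to 31.9 CPM), capillary nuclei (2.98, 6.87 to 65.3 CPM), endocardial nuclei (2.74, 4.78 to 39.0 CPM) and cardiomyocytes (2.65, 1.20 to 13.3 CPM), but not over all endothelial nuclei (0.85, 54.7 to 102 CPM, adjusted p = 0.253). The share of all genes called higher in I/R against sham was 10.5% in myeloid, 2.43% in capillary, 0.307% in endocardial, 1.8% in endothelial and 0.676% in cardiomyocyte nuclei. Of the sham mice 0 of 3 reached the filter for Adam12 in myeloid, capillary and endocardial nuclei and 1 of 3 in cardiomyocytes, so it was tested in these 4 classes through the injured hearts and a rise was the direction open to it. Beside these, of the fibroblast markers tested, 2 of 7 were called higher in cardiomyocytes, in capillary and in myeloid nuclei and 1 of 7 in endocardial nuclei, and the part of fibroblast RNA in the Adam12 values there was not tested.

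The processing list moved in both directions in myeloid nuclei, where 5 of 8 genes rose and 2 fell after I/R, with a median log2 fold change of 0.72 against 0.09 over all genes tested, of which 10.5% were called higher and 7.78% lower. Adam12, for which a rise was the direction open, is 1 of those 5 and the 1 that rose in cardiomyocytes. The groups drew their myeloid nuclei from different clusters. Of 1807 sham nuclei 1006 lay in the Cd163-led, 716 in the Lilra5-led and 6 in the Gpnmb-led cluster. Of 4583 I/R nuclei these clusters held 819, 89 and 1717, and of 2820 SBP nuclei 878, 136 and 997. What part of the myeloid changes of this and the other lists came from that mix was not tested. In fibroblasts 1 of the 8 rose and 1 fell (6.48% and 5.08% of all genes), and in cardiomyocytes (0.676%) and in endothelial nuclei (1.8%) 1 rose. Rhbdf2, the iRhom of immune cells, rose by 1.34 on the log2 scale (25.4 to 66.3 CPM, limma adjusted p = 0.00217), and the 3 other risers by 0.58 to 0.89. Adam19 (-1.27) and Rhbdf1 (-1.49) fell. Rhbdf1 fell in fibroblasts too (-1.06, adjusted p = 0.0196), and Adam9 rose in endothelial nuclei (0.91, adjusted p = 0.0244).

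Of 6 further ligands, of which 2 to 3 passed the filter in a main type, Nrg4 and Ereg were called, 1 of 2 tested in myeloid nuclei and 1 of 3 in fibroblasts, where 10.5% and 6.48% of all genes were called higher for I/R against sham. Nrg4, a neuregulin that binds Erbb4, rose in myeloid nuclei, where sham hearts had 6.94 CPM ± 0.597, I/R hearts 103 ± 82.8 and SBP hearts 45.0 ± 10.4 (log2 fold change 3.40 for I/R against sham, SE 0.46, limma adjusted p = 0.001). Ereg (epiregulin) rose in fibroblasts from 0.687 CPM ± 0.573 to 13.5 ± 8.42 and 6.19 ± 1.89 (2.93 for I/R against sham, adjusted p = 0.00272). None of the sham mice reached the filter of 2.76 CPM for Ereg and 1 of 3 that of 7.32 CPM for Nrg4, so both were tested through the injured hearts and a rise was the direction open to them.

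Of 10 inhibitors and turnover genes, Cblb, a ubiquitin ligase that marks activated receptors for degradation, rose in myeloid (1.78, 156 to 563 CPM, limma adjusted p = 0.000237) and endothelial nuclei (0.67, 164 to 264 CPM, adjusted p = 0.0333), and Socs5 fell in fibroblasts (-0.82, adjusted p = 0.00844). This is 1 of 9 tested in myeloid (10.5% of all genes higher), 1 of 10 in endothelial (1.8% higher) and 1 of 10 in fibroblast nuclei (5.08% lower). Of 28 adaptors and transducers (27 tested in myeloid nuclei), 0 were called in cardiomyocytes, endothelial nuclei and fibroblasts, and 3 of 27 were called higher in myeloid nuclei (Gab1, 1.01, Braf, 0.96, and Pik3cb, 0.61), a share near the 10.5% of all genes. The median of the adaptors in myeloid nuclei was 0.11, near that of all genes. Of 14 genes that feed back on or answer to ERK, 10 were tested in myeloid nuclei, where 5 fell and 1 rose, with Etv5 (-1.30), Etv1 (-1.27) and Phlda1 (-0.96) lower and Ier3 (1.83) higher, and a list median of -0.53, where 7.78% of all genes were called lower and 10.5% higher. In fibroblasts Spry1 (-1.09), an inhibitor of receptor tyrosine kinase signals, and Etv5 (-0.98) fell and Dusp5 (1.39, with no sham mouse past the filter) rose, and in endothelial nuclei Phlda1 (-1.57) fell. These are 2 lower and 1 higher of 13 tested in fibroblasts (5.08% and 6.48% of all genes) and 1 lower of 12 tested in endothelial nuclei (1.39%). For SBP against sham, no gene of the 5 lists was called in cardiomyocytes or over all endothelial nuclei, and Adam12 and Ereg rose in fibroblasts. In myeloid nuclei Adam12 (3.46), Rhbdf2 (1.68), Adam10 (0.54), Nrg4 (2.52), Cblb (1.26), Gab1 (1.02), Braf (0.79) and Pik3cb (0.65) rose, Adam19 (-0.92) fell and 0 of 10 ERK feedback and target genes were called with limma. For Adam12 and Nrg4 there, and for Ereg in fibroblasts, a rise was again the direction open. Of all genes, 7.57% were called higher and 5.4% lower in myeloid nuclei and 3.75% higher in fibroblasts in that comparison. Of the 40 calls of a list gene in a main type, 21 were lost with 1 mouse left out. For I/R against sham these were Etv1 (adjusted p up to 0.0505), Etv5 (0.064), Phlda1 (0.12), Ier3 (0.103), Pik3cb (0.123) and 4 other genes (up to 0.151) in myeloid nuclei, Rhbdf1 (0.0872), Spry1 (0.0613), Etv5 (0.105) and Dusp5 (0.0643) in fibroblasts, and Adam9 (0.109), Cblb (0.131) and Phlda1 (0.121) in endothelial nuclei. For SBP against sham they were Adam10 (0.125), Adam19 (0.0863), Gab1 (0.0598) and Pik3cb (0.169) in myeloid nuclei and Ereg (0.0991) in fibroblasts. In capillary nuclei Adam12 (2.27, 0 sham mice past the filter) was called higher for SBP against sham, where 1.19% of all genes were, and Cblb (0.67) and Spred3 (1.52, 0 sham mice past the filter) higher and Spred2 (-0.55) lower for I/R against sham (2.43% and 2.27%). With the endothelial subtypes fitted first, Adam12 kept its calls for I/R against sham in capillary (2.81, adjusted p = 0.0121) and endocardial nuclei (3.51, 0.0179). Adam12 for SBP (1.80, 0.118), Cblb (0.43, 0.409) and Spred2 (-0.58, 0.26) were not called in capillary nuclei then, and Spred3 was not tested. No gene of these lists was called for SBP against I/R in the 4 main types with limma.

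The genes whose levels over classes and mice ran closest to a member were looked up among 14755 genes, over 84 values (11 classes, mice with 20 or more nuclei), where values of 1 mouse share a library. For Nrg1 these were Npr3 (Pearson r = 0.92) and Tmem108 (0.86), endocardial markers fixed for naming, and Gmds (0.85). For Erbb4 they were Trdn (0.91), Kcnj3 (0.90) and Txlnb (0.88), for Egfr Ust, Lrp1 and Plxdc2 (0.79 to 0.80) and for Nrg2 Lilrb4a, Gm40304 and Card9 (0.70 to 0.72). For Erbb2 (Ppic, Bcar1, Sptbn1), Erbb3 (Gm13479, P2rx5, 4930402D18Rik) and Hbegf (Rdh13, Ccdc62, Parm1) r was between 0.54 and 0.70.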

How the data were processed

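Each deposited table holds, per the file values, the natural log of 1 plus a gene's UMIs scaled to 10000 per nucleus, as the authors deposited it after Seurat. The methods name fastp for the reads, CellRanger on mm10 for counting, down-sampling of libraries and removal of mitochondrial genes, and the authors used DESeq2 for their own tests. The submitters' processing notes name Cell Ranger 4.0, STAR, Seurat 3.2.0 and GRCm38. UMIs were recovered by undoing the log, with at least 99.99936% of values within 0.1 UMI of a whole number. Since the unit is a log value, limma 3.58.1 (trend, robust) on log2(CPM + 1) of UMIs summed per mouse and class, scaled by TMM factors, replaced the count test written as an option. A gene had to reach, in 3 samples, the CPM that 10 UMIs give in the median library, and 15 UMIs in all, and a mouse 20 nuclei of the class. All 9 mice entered each fit but that of the Gria4-led cluster, which had 8. A call needed p of 0.05 or less after Benjamini-Hochberg adjustment over all genes and an absolute log2 fold change over 0.25. The pseudocount of 1 CPM understates the fold changes of low genes.

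Nuclei were clustered with scanpy 1.11.5 (2000 variable genes, none of them a member, 30 components, resolution 2) and endothelial nuclei again (20 components, resolution 0.2), with the arterial cluster kept apart. A version with endothelial subtypes from the clusters of all nuclei was fitted first, and the separate endothelial clustering replaced it after its results were seen. Doublets came from the Scrublet method, which marked under 0.5%. Members, markers and lists were chosen with earlier results of these data known. Named were the members, up to 4 called genes of each list, class and contrast with the largest change, and the 3 genes closest to a member with 5 CPM or more in a class. On simulated data with 200 genes changed by 2 on the log2 scale, 99.5% to 100% were recovered in the 6 classes fitted. Only genes with many UMIs were changed there, and the simulated dispersion between mice was the same for all genes. This recovery therefore does not tell how often a smaller change, or that of a low or variable member, would be called. Scaling, pseudocount, filter, doublets, typing, per-nucleus means, fewer samples, a replicate block and single mice left out were tried. The 95% intervals are from limma and include the spread between mice, while limits on counts of 0 cover counting error only. Some results are not reported here.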

Additional observations from a re-analysis of the deposited data

How the results depend on the processing

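No setting reversed a result. The number of members called for I/R against sham in the 4 main types was 4, and 3 to 4 with all mice kept. With single mice left out the lowest count was 0, for sham replicate 2, and the highest 5, for I/R replicate 3. Leaving out I/R replicate 2 gave 1 and I/R replicate 1 gave 2. The shares of all genes called with these mice left out are not given here. SBP against I/R gave 0 in each of 20 other settings, and SBP against sham 2 to 3. Correlations of the deviations of samples with the same replicate number ran from -0.40 to 0.30 in 5 classes. Those of replicate 3 were all above 0, and 5 of 9 pairs in fibroblasts and 3 of 9 in myeloid nuclei were over 0.1, but in no class were all 9, so the numbers were not taken to pair the mice. In each class 3 to 4 of 9 samples were closest to their own number. With the replicate number as a block the counts were 3, 0 and 2. Erbb4 in fibroblasts (I/R against sham) lost its call in 10 settings (adjusted p up to 0.123), among them the block, total UMIs as scaling, no filter on low genes and types by marker score, and Egfr in fibroblasts lost it in 5 (up to 0.0857), of which 4 left out a mouse. Endothelial and myeloid Erbb4 lost theirs without sham replicate 2 (adjusted p = 0.0639 and 0.0564). Myeloid Erbb4 also lost it on the mean of the per-nucleus values (0.0517), and endocardial Erbb4 (SBP against sham) with types by marker score (0.0508) and with the block (0.0618). With endothelial subtypes from the clusters of all nuclei, the version fitted before the one reported, capillary Erbb4 was -0.34 (adjusted p = 0.547) and -0.54 (adjusted p = 0.355) against sham, neither called. Of the 40 called list genes by type and contrast, recomputed in the same 20 settings after the data were seen, 13 kept the call in each and none reversed. The cause of these changes was not tested. Depth limits Areg, Btc, Erbb2 and Erbb3, whose UMIs over all 9 hearts were 24, 313, 988 and 947.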
